A study of Arabidopsis thaliana with 24 samples.

Results

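The aquaporins of Arabidopsis thaliana, the channel proteins that carry water and some small uncharged solutes across membranes, were followed as a family of 33 loci listed by name: 5 PIP1, 8 PIP2, 10 TIP, 7 NIP and 3 SIP genes. All 33 were found among the 27655 loci of the count tables, as 54 transcript models whose reads were summed per locus. A mean of at least 2 CPM (read counts scaled by library size) in at least 1 group was reached by 26 of them, namely 5 PIP1, 8 PIP2, 6 TIP, 4 NIP and 3 SIP genes, and these are described. The series holds 24 libraries of polyadenylated RNA, sequenced from the 3′ end, from whole soil-grown seedlings of 14 days. The seedlings grew in 4 long-day settings and were taken 4 h (ZT4, morning) or 16 h (ZT16, evening) after the start of the light period, with 3 libraries for each setting and time. In natural 2014 and natural 2013 the seedlings stood outside in July 2014 and in June 2013, in an open cage under a fabric that lowered light intensity and kept the red to far-red ratio of sunlight. In LD+FR+TEMP the seedlings grew indoors in long days, with weak 730 nm light added until red and far-red stood at a ratio of 1, and with a daily temperature programme taken from outdoor records, which stood at 17.9 °C at ZT4 and passed from 19.8 °C at ZT15 to 18.3 °C at ZT17. In lab LD they grew indoors in standard long days without either change. The labels used here name no genotype or mutation, and every group is described as seedlings of the same age. Roots, leaves and shoot tips are mixed in each library, so that fewer cells of a type and less RNA per cell cannot be told apart. The labels do not say whether the replicates were planted separately. The p-values here set a difference between groups against the spread of these libraries, which may not be that of separate plantings.

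Aquaporins sit in membranes as tetramers in which each subunit forms its own pore. Plasma membrane intrinsic proteins (PIPs) control water flow into and out of cells, and PIP1 proteins usually need a PIP2 partner to reach the plasma membrane. Tonoplast intrinsic proteins (TIPs) line the vacuole membrane, nodulin-26-like intrinsic proteins (NIPs) carry metalloids such as boric acid, arsenite and silicic acid in addition to water or glycerol, and small basic intrinsic proteins (SIPs) lie in the endoplasmic reticulum. In plants, water conductance of roots and leaves follows the day, and PIP transcripts of several species are known to peak in the morning.

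The outdoor libraries held 6543615 to 10711582 counts and the indoor ones 12069812 to 16089156, so the depths of the outdoor and indoor libraries did not overlap, and the part of depth in the results was not tested. None of the 24 pairs of replicates of 1 group held the same values (0 identical pairs), and every pair differed by more than counting noise, with a chi-square per locus of 2.89 to 26.8. The summed reads of 6 photosynthetic leaf genes were 48750 to 51020, 42990 to 50030, 32590 to 45360 and 30690 to 31550 CPM at ZT16 in natural 2014, natural 2013, LD+FR+TEMP and lab LD, and 60280 to 69110, 49200 to 50380, 43790 to 47520 and 38800 to 39400 CPM at ZT4. Those of 17 root genes were 353 to 419, 301 to 324, 359.7 to 381 and 349.7 to 411 CPM at ZT16 in the same order, and 348 to 397, 345 to 465, 421 to 465 and 414 to 475 CPM at ZT4. Both lists were thus present in every library. The root sums were mostly reads of 1 gene, BGLU23, whose highest group mean was 343 CPM, against 45.8 CPM for SCR, the next highest. They therefore say little about the other root genes. Natural 2014 ZT4 replicate 1 stood apart in several aquaporins, and values without it are given beside the called values that moved by over 1.5 times.

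Aquaporin reads made up a larger share of the scaled library size in the morning than in the evening in all 4 settings. The share was largest in natural 2014 at ZT4. Shares are of the library sizes scaled by TMM, as for CPM, and not of the plain counts. The 33 loci together took 1.265% at ZT16 and 2.133% at ZT4 in natural 2014, and 1.023% and 1.738% in natural 2013. They took 1.095% and 1.523% in LD+FR+TEMP, and 0.8965% and 1.529% in lab LD. Summed over the family, the 3 natural 2014 libraries held 11250, 13990 and 12710 CPM at ZT16, against 23540, 20520 and 19920 CPM at ZT4. The 3 lab LD libraries held 8261, 9361 and 9272 CPM at ZT16, against 15030, 15230 and 15600 CPM at ZT4. In each of the 4 settings all evening libraries lay below all morning libraries. The summed NIP reads at ZT16 were 26.8 ± 2.24 CPM in natural 2014 and 25.4 ± 3.63 CPM in natural 2013, against 62.7 ± 6.01 CPM in LD+FR+TEMP and 47.6 ± 6.19 CPM in lab LD (SD, n = 3 each). At ZT4 they were 56.9 ± 3.86 CPM in natural 2014 and 45.7 ± 5.09 CPM in natural 2013, against 74.6 ± 9.85 CPM in LD+FR+TEMP and 52.5 ± 0.617 CPM in lab LD, so natural 2014 lay above lab LD in the morning mean. SIP reads stayed within 52.6 to 64.3 CPM as group means.

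**Figure D1:**
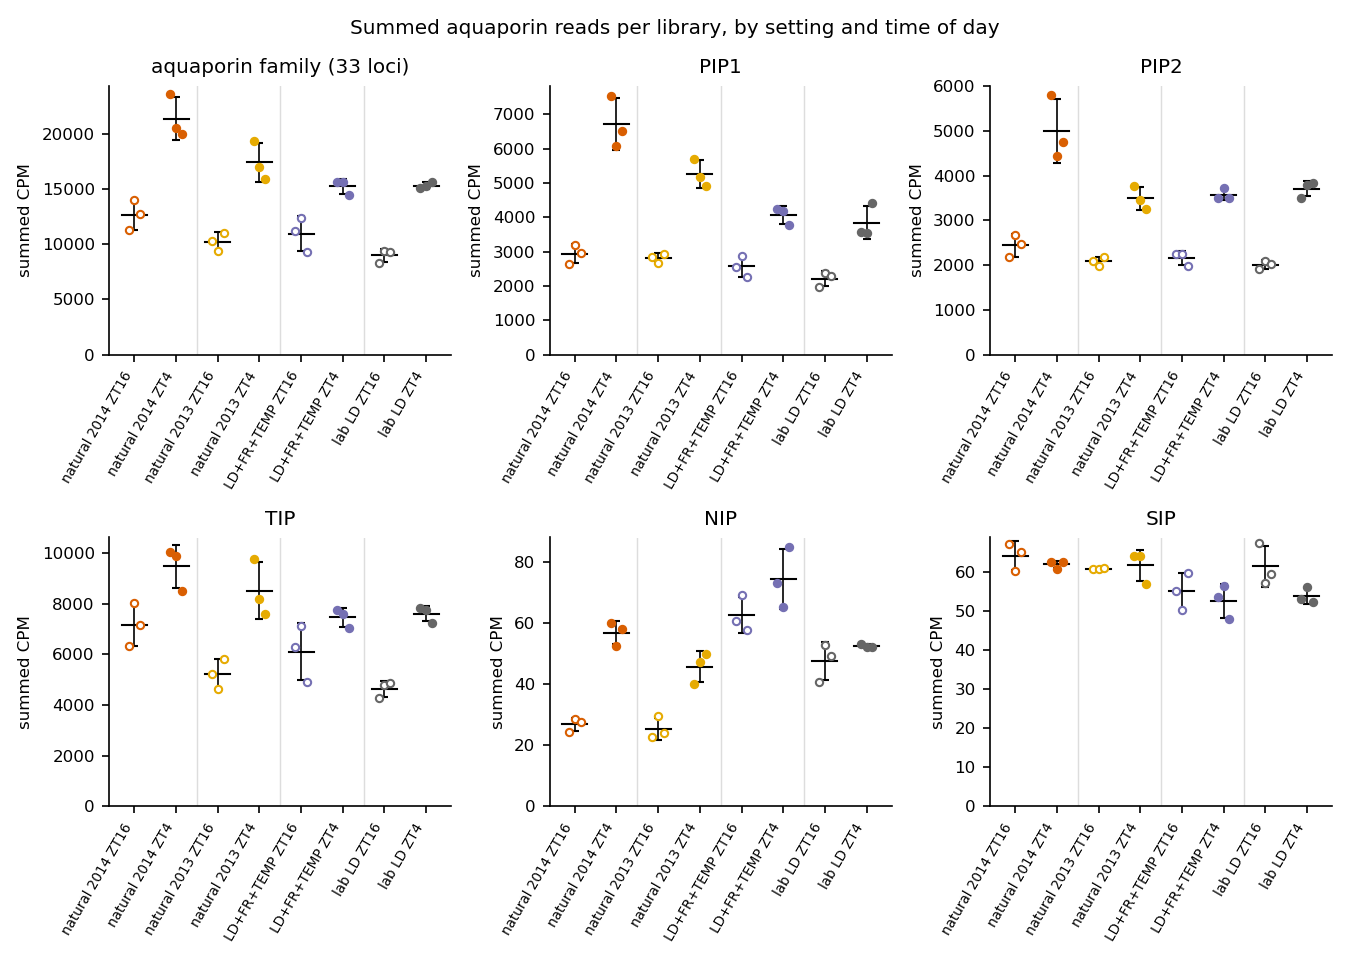
Summed CPM of the 5 PIP1, 8 PIP2, 10 TIP, 7 NIP and 3 SIP loci in each library (points), with the group mean (line) and 1 SD (bar), by setting and time. The PIP1, PIP2 and TIP sums are lower at ZT16 (open points) than at ZT4 (filled points) in the group means of all 4 settings, and the NIP sums at ZT16 are lower in both outdoor years than in the indoor settings.

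The comparison of evening with morning asks how transcript levels follow the day in each setting. Most plasma membrane aquaporins and several vacuolar ones fell at ZT16 relative to ZT4. Of the 26 genes, 15 fell and 1 rose in natural 2014, 15 fell and 1 rose in natural 2013, 11 fell and 2 rose in LD+FR+TEMP, and 13 fell and 1 rose in lab LD (edgeR quasi-likelihood test, adjusted p under 0.05). Among all 18797 genes tested, 22.5% fell and 23.2% rose in natural 2014, 17.8% fell and 17.6% rose in natural 2013, 12.1% fell and 11.4% rose in LD+FR+TEMP, and 11.5% fell and 10.4% rose in lab LD. The share of aquaporins that fell was therefore above that of all genes in every setting, and the share that rose was below it. The median log2 fold change of the 26 genes was -0.71 in natural 2014, -0.64 in natural 2013, -0.31 in LD+FR+TEMP and -0.43 in lab LD, while that of all genes lay between -0.02 and 0.04. These 4 comparisons share no library. The 9 genes called lower at ZT16 in all 4 settings were PIP1;1, PIP1;2, PIP1;3, PIP1;4, PIP2;1, PIP2;3, TIP2;1, TIP2;2 and NIP6;1, and 19 were called lower in at least 1 setting.

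**Figure D2:**
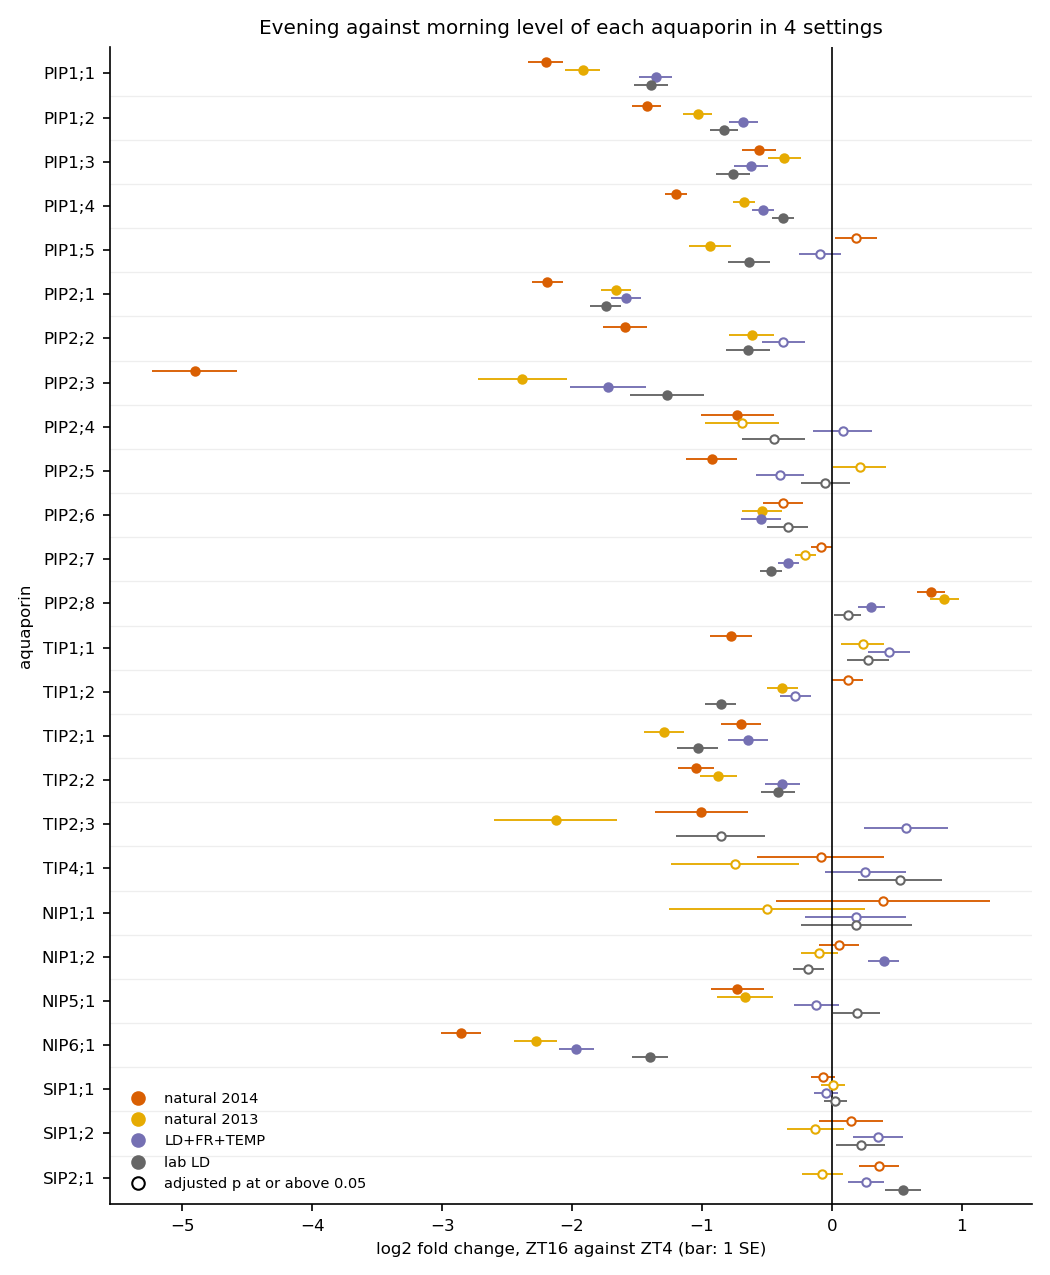
Log2 fold change at ZT16 relative to ZT4 for each of the 26 aquaporins in the 4 settings, with bars of 1 standard error. Open points did not pass an adjusted p of 0.05. The PIP1 genes, PIP2;1, PIP2;3, TIP2;1, TIP2;2 and NIP6;1 lie mostly to the left of 0, and PIP2;8 lies to the right of 0 in all 4 settings, although it passed the test only in natural 2014, natural 2013 and LD+FR+TEMP.

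LD+FR+TEMP, which tests added far-red with a daily course of temperature indoors, changed few aquaporins relative to lab LD. At ZT4, 2 of the 26 genes rose (the boric acid channels NIP5;1 and NIP6;1) and 2 fell (PIP2;1 and NIP1;2), where 8.34% of all genes rose and 8.6% fell. At ZT16, 2 rose (the vacuolar channels TIP2;3 and TIP1;2) and 0 fell, where 1.65% of all genes rose and 1% fell. Beside that count of 0, 2 genes, PIP2;1 and PIP2;3, were lower at an unadjusted p under 0.05, and DESeq2 called 0. The counts at ZT4 were near the background. The median log2 fold change of the 26 genes was 0.09 at ZT4 and 0.18 at ZT16, against -0.01 and 0.001 for all genes.

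Outdoors, PIP genes were mostly raised in the morning of natural 2014, and the boric acid channel gene NIP5;1 was lowered in the evening of both years. Against lab LD at ZT4, natural 2014 had 12 of 26 aquaporins higher and 3 lower (all genes, 22.1% and 22.1%), and natural 2013 had 6 higher and 3 lower (all genes, 14.7% and 14.3%). At ZT16, natural 2014 had 7 higher and 8 lower (all genes, 18.5% and 17.4%), and natural 2013 had 3 higher and 8 lower (all genes, 14.8% and 14.3%). The median log2 fold change of the 26 genes was 0.31 in natural 2014 and -0.003 in natural 2013 at ZT4, and 0.04 and -0.14 at ZT16. The share of aquaporins that were higher in natural 2014 at ZT4 was above that of all genes. Of the genes lower at ZT16 in both years, TIP4;1 and NIP1;1 reached 2 CPM only through indoor groups, so their lower outdoor level was partly set by the rule of inclusion. Without this pair, 6 of 24 genes (25%) were lower at ZT16 in each year. NIP1;1 was also among the 3 lower in natural 2014 at ZT4, where 2 of 24 genes (8.33%) were lower without the pair. Over all genes the 4 medians lay between -0.05 and -0.01. The 2 outdoor years and LD+FR+TEMP were each set against the same lab LD libraries, so calls shared between them are not independent. The count for natural 2013 at ZT16 was 7 instead of 11 without natural 2013 ZT16 replicate 1 and 6 without replicate 3.

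**Figure D3:**
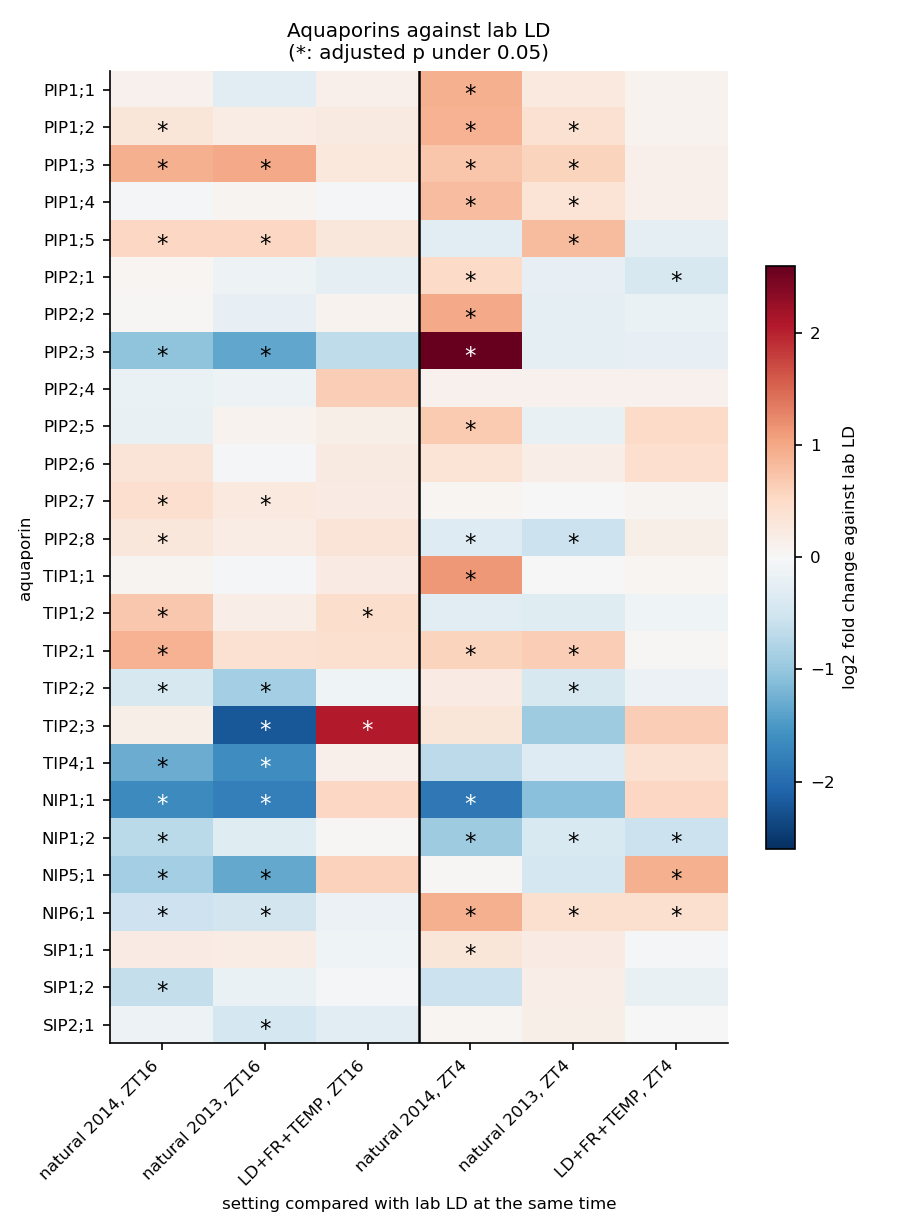
Log2 fold change of each of the 26 aquaporins relative to lab LD in natural 2014, natural 2013 and LD+FR+TEMP at ZT16 and ZT4, as a colour scale, where an asterisk marks an adjusted p under 0.05. At ZT4 the PIP1 genes other than PIP1;5 are raised in natural 2014 and PIP1;5 in natural 2013, PIP2;3 is raised in natural 2014 and lowered in both years at ZT16, and NIP5;1 is lowered in both years at ZT16.

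Set against LD+FR+TEMP, the mean of both outdoor years showed higher PIP1 genes in the morning and lower TIP2;3 and NIP5;1 in the evening. At ZT4, 11 of the 26 genes were higher and 5 lower, where 15% and 14.8% of all genes were. At ZT16, 2 were higher and 7 lower, where 14.4% and 16.3% of all genes were. The median log2 fold change was 0.07 at ZT4 and -0.19 at ZT16, against -0.01 and -0.01 for all genes. The share higher at ZT4 in the outdoor mean was above that of all genes, and the share higher at ZT16 below it. Of the 11 genes higher at ZT4, 5 had libraries that did not overlap. For PIP2;3, PIP2;2 and TIP1;1, the natural 2013 means at ZT4 (38.3, 129.5 and 874 CPM) lay within the range of the LD+FR+TEMP libraries. The higher outdoor mean of these genes came from natural 2014. All 5 PIP1 genes were among the 11 higher at ZT4, although for PIP1;5 the outdoor mean joined 247 CPM in natural 2014 with 532 CPM in natural 2013, against 252 CPM in LD+FR+TEMP. The lower counts include TIP4;1 and NIP1;1 at both times, and without this pair 3 of 24 genes (12.5%) were lower at ZT4 and 5 (20.8%) at ZT16.

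Between the outdoor years, more aquaporins were called in the morning than in the evening. Natural 2014 had 11 of the 26 genes higher and 3 lower than natural 2013 at ZT4, where 16.5% and 14.5% of all genes were. At ZT16, 3 were higher (TIP1;2, TIP2;1 and TIP2;3) and 0 lower, where 2.82% and 2.33% of all genes were. Beside that count of 0, 1 gene, NIP1;2, was lower at an unadjusted p under 0.05, and DESeq2 called 0. Without natural 2013 ZT16 replicate 2 or natural 2014 ZT16 replicate 2, 1 call was left at ZT16. The TIP2;1 libraries of the 2 years overlapped at ZT16. Its call (log2 change 0.522) was lost without any 1 of 4 libraries and with the replicate block. The median log2 fold change of the 26 genes was 0.21 at ZT4 and 0.16 at ZT16, against 0.001 and 0.01 for all genes.

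For 4 of the 5 PIP1 genes, the morning level differed between the outdoor years, and the exception was PIP1;3 (0.14 ± 0.13 in natural 2014 relative to natural 2013, not past the test). PIP1;1 (AT3G61430, chr3:22733243-22735394, plus strand) encodes a plasma membrane channel subunit. In the evening it measured 136, 161 and 148 CPM in natural 2014, 114, 111 and 119 CPM in natural 2013, 148, 159 and 147 CPM in LD+FR+TEMP and 124, 158 and 131 CPM in lab LD. In the morning it measured 837, 609.8 and 605 CPM in natural 2014, 437, 472 and 392 CPM in natural 2013, 383, 405 and 374 CPM in LD+FR+TEMP and 304, 338 and 443 CPM in lab LD. The evening libraries lay below the morning libraries in every setting. The gene fell at ZT16 by a log2 fold change of -2.204 ± 0.13, adjusted p = 3.51e-13 in natural 2014 (log2 change below, ± standard error). The values were -1.92 ± 0.13, adjusted p = 1.08e-11 in natural 2013, -1.36 ± 0.13, adjusted p = 7.79e-09 in LD+FR+TEMP and -1.39 ± 0.13, adjusted p = 5.04e-09 in lab LD. At ZT4 it was higher in natural 2014 than in lab LD (log2 change 0.92 ± 0.13, adjusted p = 2.05e-06) and than in natural 2013 (log2 change 0.66 ± 0.13, adjusted p = 0.000267).

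PIP1;2 (AT2G45960, chr2:18910081-18911982, plus strand), a channel known for water flow in roots and leaves and for a role in CO2 passage, took the largest share of the PIP1 reads. At ZT16 the libraries held 1439, 1719 and 1505 CPM in natural 2014, 1411, 1398 and 1484 CPM in natural 2013, 1458, 1677 and 1296 CPM in LD+FR+TEMP and 1101, 1353 and 1291 CPM in lab LD. At ZT4 the libraries held 4700, 3636 and 4166 CPM in natural 2014, 3207, 2901 and 2678 CPM in natural 2013, 2440, 2463 and 2207 CPM in LD+FR+TEMP and 2053, 2099 and 2503 CPM in lab LD. The natural 2014 morning libraries lay above all others. The fall at ZT16 was -1.42 ± 0.11, adjusted p = 6.27e-11 in natural 2014, -1.03 ± 0.11, adjusted p = 3.82e-08 in natural 2013, -0.68 ± 0.11, adjusted p = 3.65e-05 in LD+FR+TEMP and -0.83 ± 0.11, adjusted p = 2.12e-06 in lab LD. Relative to lab LD at ZT4, PIP1;2 rose in natural 2014 (log2 change 0.91 ± 0.11, adjusted p = 2.61e-07). It also rose in natural 2013 (log2 change 0.401 ± 0.11, adjusted p = 0.00772), a call that was lost without natural 2013 ZT4 replicate 1 (0.33). The mean of both outdoor years was above LD+FR+TEMP at ZT4 (log2 change 0.56 ± 0.098, adjusted p = 0.000101).

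PIP1;3 (AT1G01620, chr1:225665-227543, minus strand) was higher outdoors at both times of day. PIP1;3 stood at 575, 739.8 and 743 CPM in natural 2014, 738, 637 and 761 CPM in natural 2013, 438, 487 and 379.7 CPM in LD+FR+TEMP and 303, 389 and 390 CPM in lab LD at ZT16. The ZT4 levels were 1109, 983 and 936 CPM in natural 2014, 1053, 826 and 869.7 CPM in natural 2013, 738, 699 and 568 CPM in LD+FR+TEMP and 604, 549.9 and 677 CPM in lab LD. The outdoor and lab LD libraries did not overlap at either time. At ZT16 it rose relative to lab LD by 0.93 ± 0.13, adjusted p = 6.25e-06 in natural 2014 and 0.98 ± 0.13, adjusted p = 5.06e-06 in natural 2013. At ZT4 the log2 fold changes were 0.73 ± 0.13, adjusted p = 6.55e-05 in natural 2014 and 0.59 ± 0.13, adjusted p = 0.00143 in natural 2013. Against LD+FR+TEMP, the outdoor mean was higher by 0.68 ± 0.12, adjusted p = 6.85e-05 at ZT16 and 0.52 ± 0.12, adjusted p = 0.00117 at ZT4. PIP1;3 differed from lab LD in LD+FR+TEMP by 0.27 ± 0.13 at ZT16 and 0.13 ± 0.13 at ZT4, which did not pass the test. It fell at ZT16 in all 4 settings, by -0.56 ± 0.13 in natural 2014, -0.36 ± 0.13 in natural 2013, -0.62 ± 0.13 in LD+FR+TEMP and -0.76 ± 0.13 in lab LD. The natural 2013 call was lost without natural 2013 ZT4 replicate 1 (-0.25), natural 2013 ZT16 replicate 1 (-0.39) or natural 2013 ZT16 replicate 2 (-0.29).

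PIP1;4 (AT4G00430, chr4:185285-187680, minus strand) had nearly equal evening levels everywhere and unequal morning levels. Evening levels were 275, 261 and 269.5 CPM in natural 2014, 285, 290.3 and 284 CPM in natural 2013, 261, 299 and 244 CPM in LD+FR+TEMP and 265, 285 and 272 CPM in lab LD. Morning levels were 664, 582 and 603 CPM in natural 2014, 485, 436 and 449.6 CPM in natural 2013, 421, 389 and 353 CPM in LD+FR+TEMP and 357, 343 and 366 CPM in lab LD. The ZT4 levels of both outdoor years lay above those of the indoor settings, with natural 2014 highest. Relative to lab LD at ZT4, PIP1;4 rose by 0.79 ± 0.09, adjusted p = 3.47e-08 in natural 2014 and 0.36 ± 0.09, adjusted p = 0.00226 in natural 2013, and the outdoor mean was above LD+FR+TEMP by 0.45 ± 0.08, adjusted p = 5.39e-05. Its fall at ZT16 was -1.199 ± 0.09 in natural 2014, -0.67 ± 0.09 in natural 2013, -0.53 ± 0.09, adjusted p = 3.07e-05 in LD+FR+TEMP and -0.37 ± 0.09 in lab LD, and the fall in natural 2014 was larger than that in natural 2013 and in lab LD.

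PIP1;5 (AT4G23400, chr4:12220641-12222468, plus strand) was the PIP1 gene that set the outdoor years apart in the other direction, with its highest level in natural 2013 at ZT4. Its ZT16 levels were 226, 320 and 295 CPM in natural 2014, 304, 240 and 291 CPM in natural 2013, 242, 263 and 206 CPM in LD+FR+TEMP and 177, 200.1 and 201 CPM in lab LD. At ZT4 it stood at 242, 277 and 221 CPM in natural 2014, 529.8, 554 and 513 CPM in natural 2013, 249, 242 and 266 CPM in LD+FR+TEMP and 268, 216 and 416 CPM in lab LD. All 3 natural 2013 morning libraries exceeded every other library, and lab LD replicate 3 stood above the other lab LD libraries at ZT4. The natural 2014 mean was below both indoor means at ZT4. The gene was lower in natural 2014 than in natural 2013 at ZT4 (log2 change -1.11 ± 0.16, adjusted p = 9.17e-06). In natural 2013 it rose relative to lab LD at ZT4 (log2 change 0.83 ± 0.16, adjusted p = 4e-04). At ZT16 it was higher than in lab LD in natural 2014 (log2 change 0.54 ± 0.16, adjusted p = 0.0108) and in natural 2013 (log2 change 0.53 ± 0.16, adjusted p = 0.0154). The natural 2014 call was lost without natural 2014 ZT16 replicate 2 (0.44) or lab LD ZT16 replicate 1 (0.47), and the natural 2013 call without natural 2013 ZT16 replicate 1 (0.46), natural 2013 ZT16 replicate 3 (0.498) or lab LD ZT16 replicate 1 (0.46). The gene fell at ZT16 in natural 2013 (log2 change -0.94 ± 0.16, adjusted p = 5.42e-05), while the natural 2014 difference of 0.18 ± 0.16 did not pass the test.

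PIP2;1 (AT3G53420, chr3:19803473-19805730, minus strand), a water and hydrogen peroxide channel known in guard cells and roots, fell in the evening in every setting. In the evening it measured 499, 555 and 501 CPM in natural 2014, 490, 405 and 475 CPM in natural 2013, 441, 402 and 426 CPM in LD+FR+TEMP and 498, 522 and 489 CPM in lab LD. In the morning it measured 2981, 1966 and 2152 CPM in natural 2014, 1572, 1422 and 1336 CPM in natural 2013, 1210, 1405 and 1188 CPM in LD+FR+TEMP and 1554, 1751 and 1736 CPM in lab LD. No evening library reached the level of any morning library. It fell at ZT16 by -2.19 ± 0.12, adjusted p = 4.59e-14 in natural 2014, -1.66 ± 0.12, adjusted p = 1.6e-11 in natural 2013, -1.58 ± 0.12, adjusted p = 7.37e-11 in LD+FR+TEMP and -1.74 ± 0.12, adjusted p = 1.09e-11 in lab LD. At ZT4 it was higher in natural 2014 than in natural 2013 (log2 change 0.71 ± 0.12, adjusted p = 3e-05, and 0.51 without natural 2014 ZT4 replicate 1) and than in lab LD (log2 change 0.49 ± 0.12, adjusted p = 0.00105, and 0.29 without that library). It fell in LD+FR+TEMP relative to lab LD at ZT4 (log2 change -0.41 ± 0.12, adjusted p = 0.0154), a call that was lost without LD+FR+TEMP ZT4 replicate 1 (-0.37), LD+FR+TEMP ZT4 replicate 3 (-0.36) or lab LD ZT4 replicate 2 (-0.38).

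PIP2;2 and PIP2;3 are close relatives that lie head to head on chromosome 2. Both were highest in natural 2014 at ZT4, and they differed in the size of their changes and in the evening against lab LD. PIP2;2, a channel known from root water uptake, (AT2G37170) lies at chr2:15613368-15615022 on the minus strand, and PIP2;3, first described as the desiccation-responsive gene RD28 (AT2G37180), at chr2:15617635-15619155 on the plus strand, with 2612 bases between them (TAIR10.1). Their coding sequences were 94.8% identical, while the last 300 bases of their transcripts, near the end from which the libraries were read, were 61.8% identical and the 300 bases before each gene start 52.9%. The coding ends are shown because they tell the pair apart near the sequenced end: of the last 90 coding bases, 10 differ, given in capitals (RefSeq, TAIR10.1, 5′ to 3′ on the coding strand).
PIP2;2: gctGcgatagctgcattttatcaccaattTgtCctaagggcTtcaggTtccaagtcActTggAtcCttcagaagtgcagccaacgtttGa
PIP2;3: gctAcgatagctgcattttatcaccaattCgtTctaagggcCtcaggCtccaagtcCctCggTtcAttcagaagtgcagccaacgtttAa
How reads that match both copies were counted is not given in the sources used here, so the split of reads between them is uncertain. Other pairs were less alike in their coding sequence: PIP1;1 and PIP1;2 were 87.6% identical, PIP2;1 and PIP2;2 85.9%, PIP1;3 and PIP1;4 85.1%, and NIP1;1 and NIP1;2 84.5%.

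PIP2;3 had the widest range of the family, with group means that spanned 36.7-fold. At ZT16 the libraries held 11.2, 8.78 and 6.83 CPM in natural 2014, 8.38, 7.199 and 6.48 CPM in natural 2013, 10.6, 12.2 and 12.5 CPM in LD+FR+TEMP and 18.1, 21.4 and 16.7 CPM in lab LD. At ZT4 the libraries held 491, 126 and 193 CPM in natural 2014, 41.4, 38.9 and 34.6 CPM in natural 2013, 34.2, 41.96 and 40.7 CPM in LD+FR+TEMP and 41.8, 50.5 and 42.9 CPM in lab LD. Every natural 2014 morning library exceeded every library of the other groups, and replicate 1 among them was more than the other two together. PIP2;3 fell at ZT16 in natural 2014 (log2 change -4.91 ± 0.33, adjusted p = 2.39e-12), and by -4.15 without natural 2014 ZT4 replicate 1. The fall was -2.38 ± 0.34 in natural 2013, -1.72 ± 0.29 in LD+FR+TEMP and -1.27 ± 0.28 in lab LD, each past the test. At ZT4 it was higher in natural 2014 than in lab LD (log2 change 2.58 ± 0.28, adjusted p = 4.09e-08, and 1.82 without that library) and than in natural 2013 (log2 change 2.82 ± 0.29, adjusted p = 3.93e-08, and 2.06 without it). At ZT16 it was lower than in lab LD in natural 2014 (log2 change -1.06 ± 0.32, adjusted p = 0.0116) and in natural 2013 (log2 change -1.35 ± 0.34, adjusted p = 0.00432). The natural 2014 call at ZT16 was lost without natural 2014 ZT16 replicate 3 (-0.899).

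PIP2;2 had ZT16 levels of 99.8, 112 and 90.6 CPM in natural 2014, 89.6, 76.8 and 87.1 CPM in natural 2013, 104, 111 and 100.1 CPM in LD+FR+TEMP and 88.4, 110.2 and 96.5 CPM in lab LD. At ZT4 it had 433, 223 and 255 CPM in natural 2014, 152, 129.6 and 107 CPM in natural 2013, 138, 147 and 122 CPM in LD+FR+TEMP and 137, 155 and 169 CPM in lab LD. The natural 2014 morning libraries were again the highest, and the other 3 settings overlapped at ZT4. It was higher in natural 2014 than in natural 2013 at ZT4 (log2 change 1.23 ± 0.17, adjusted p = 3.58e-06), and by 0.88 without natural 2014 ZT4 replicate 1. At ZT16 its outdoor and lab LD levels overlapped, and the log2 fold changes of 0.03 ± 0.17 in natural 2014 and -0.22 ± 0.17 in natural 2013 did not pass the test, where those of PIP2;3 did.

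**Figure D4:**
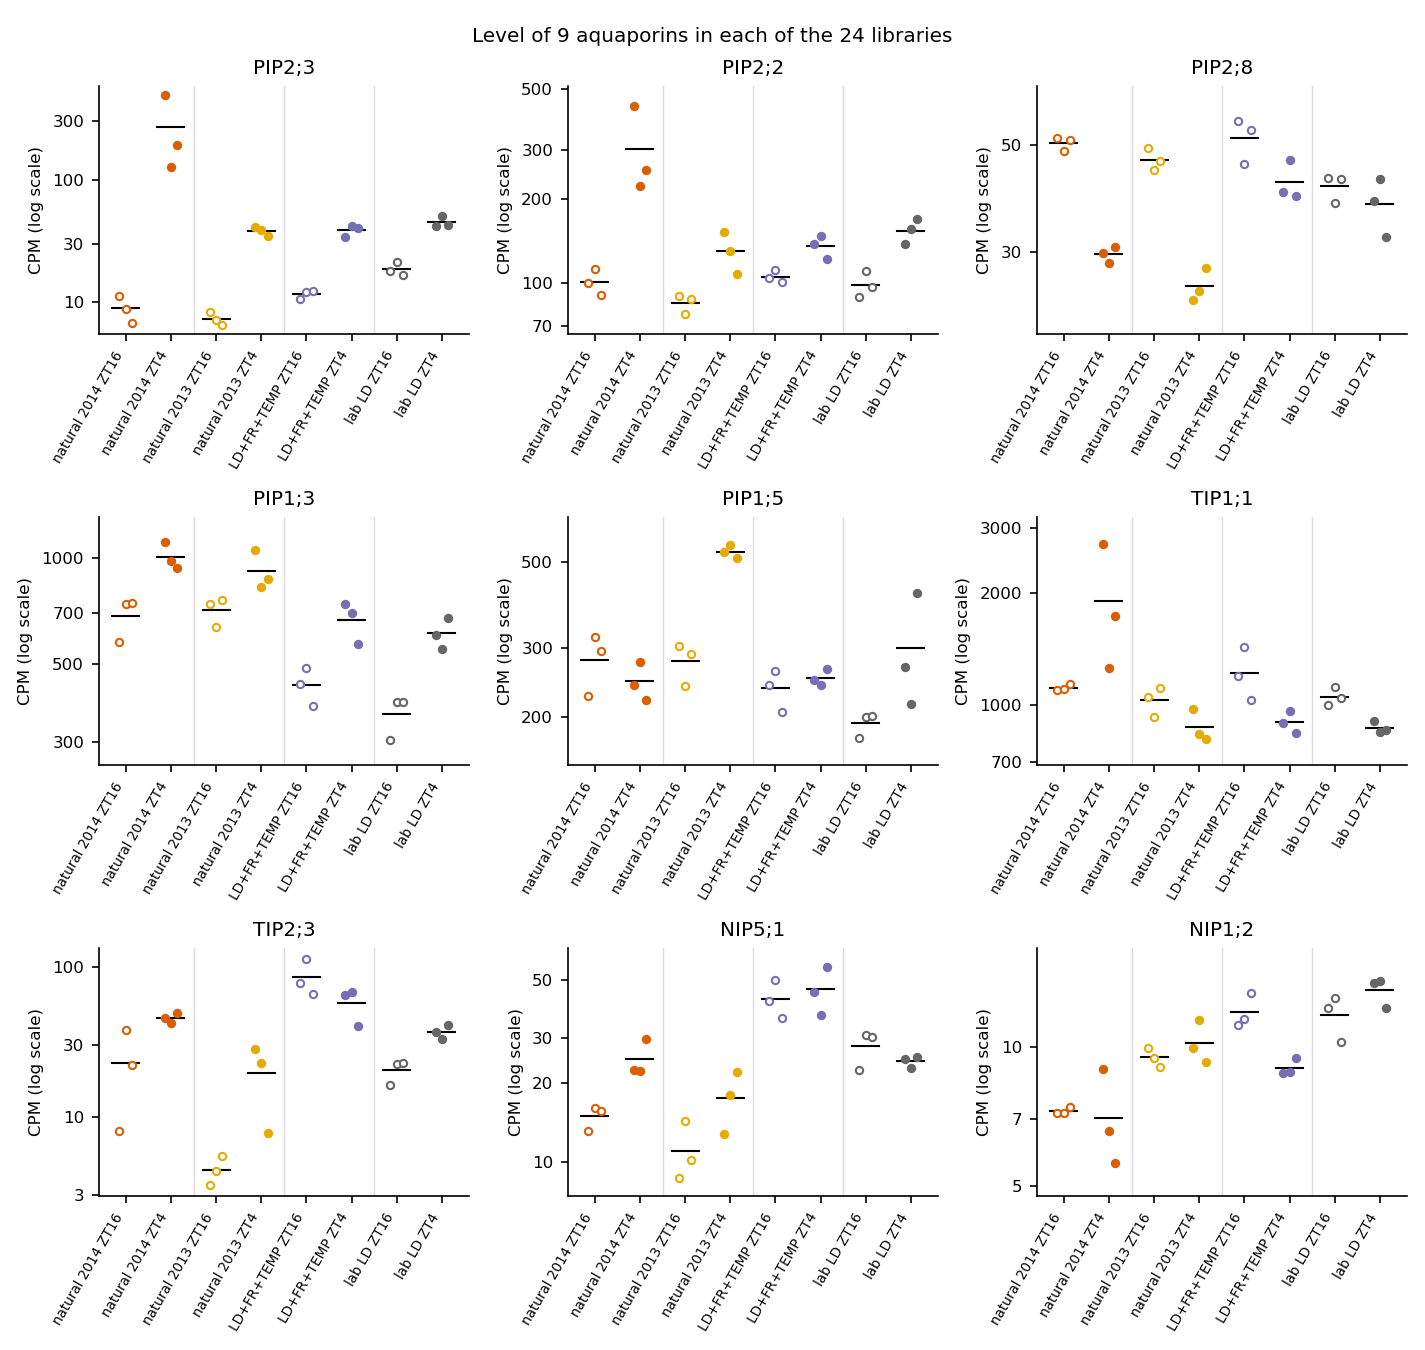
Level in CPM (log axis) of 9 aquaporins in each library, by setting, with ZT16 as open points, ZT4 as filled points and a line at each mean. PIP2;3 reaches 491 CPM in 1 natural 2014 library at ZT4 and is lowest, at 6.48 CPM, in natural 2013 at ZT16, PIP2;8 is the panel in which outdoor evening points lie above the morning points, and TIP2;3 is lowest in natural 2013 at ZT16.

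PIP2;8 (AT2G16850, chr2:7301334-7303509, plus strand), a less studied plasma membrane channel, rose in the evening outdoors, where most PIP genes fell. PIP2;8 stood at 51.8, 48.7 and 51.2 CPM in natural 2014, 49.3, 44.5 and 46.3 CPM in natural 2013, 56.2, 45.7 and 53.7 CPM in LD+FR+TEMP and 42.7, 37.97 and 42.7 CPM in lab LD at ZT16. The ZT4 levels were 29.9, 28.6 and 30.8 CPM in natural 2014, 23.9, 24.9 and 27.8 CPM in natural 2013, 40.1, 46.6 and 39.4 CPM in LD+FR+TEMP and 38.4, 42.6 and 32.3 CPM in lab LD. In both outdoor years all evening libraries exceeded all morning libraries. PIP2;8 rose at ZT16 in natural 2014 (log2 change 0.77 ± 0.11, adjusted p = 2.42e-06) and in natural 2013 (log2 change 0.87 ± 0.11, adjusted p = 7.72e-07). The rise in LD+FR+TEMP (log2 change 0.304 ± 0.103, adjusted p = 0.0327) was lost without LD+FR+TEMP ZT4 replicate 1 (0.27), LD+FR+TEMP ZT4 replicate 3 (0.26), LD+FR+TEMP ZT16 replicate 1 (0.24) or LD+FR+TEMP ZT16 replicate 3 (0.28), and the lab LD value of 0.12 ± 0.104 did not pass the test. Relative to lab LD at ZT4 it fell in natural 2013 (log2 change -0.56 ± 0.11, adjusted p = 0.000417) and in natural 2014 (log2 change -0.35 ± 0.11, adjusted p = 0.0132), the second a call that was lost without natural 2014 ZT4 replicate 2 (-0.32) or lab LD ZT4 replicate 2 (-0.25). The outdoor mean was below LD+FR+TEMP at ZT4 (log2 change -0.61 ± 0.09, adjusted p = 1.85e-05).

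PIP2;7 (AT4G35100, chr4:16708361-16710407, plus strand), a channel that the stress protein TSPO is known to bring to degradation, had many reads and a narrow range. Evening levels were 989, 1200 and 1213 CPM in natural 2014, 979, 969 and 1024 CPM in natural 2013, 1064, 955 and 889 CPM in LD+FR+TEMP and 815, 862 and 829 CPM in lab LD. Morning levels were 1199, 1133 and 1264 CPM in natural 2014, 1152, 1131 and 1141 CPM in natural 2013, 1182, 1216 and 1266 CPM in LD+FR+TEMP and 1135, 1194 and 1138 CPM in lab LD. Morning levels were nearly the same in all settings, and the lab LD evening libraries were the lowest. PIP2;7 fell at ZT16 in lab LD (log2 change -0.47 ± 0.08, adjusted p = 9.92e-05) and in LD+FR+TEMP (log2 change -0.33 ± 0.08, adjusted p = 0.00372). The outdoor values of -0.08 ± 0.08 in natural 2014 and -0.204 ± 0.08 in natural 2013 did not pass the test. At ZT16 it was higher than in lab LD in natural 2014 (log2 change 0.44 ± 0.08, adjusted p = 0.000174) and in natural 2013 (log2 change 0.25 ± 0.08, adjusted p = 0.0263), the second a call that was lost without natural 2013 ZT16 replicate 1 (0.26), natural 2013 ZT16 replicate 3 (0.22), lab LD ZT16 replicate 1 (0.22) or lab LD ZT16 replicate 3 (0.24).

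PIP2;6 (AT2G39010), a channel known from leaf veins, had means of 609 ± 116 CPM in natural 2014, 475 ± 37.6 CPM in natural 2013, 568 ± 117 CPM in LD+FR+TEMP and 484 ± 59.8 CPM in lab LD at ZT16. At ZT4 its means were 789 ± 162 CPM in natural 2014, 688 ± 113 CPM in natural 2013, 828 ± 28.5 CPM in LD+FR+TEMP and 613 ± 65.3 CPM in lab LD (SD, n = 3 each). The gene fell at ZT16 in natural 2013 (-0.54 ± 0.16) and in LD+FR+TEMP (-0.54 ± 0.16), calls that were lost without natural 2013 ZT4 replicate 1 (-0.41) and without LD+FR+TEMP ZT16 replicate 1 (-0.504) or LD+FR+TEMP ZT16 replicate 3 (-0.42). PIP2;5 (AT3G54820) had means of 20.2 ± 2.13 CPM in natural 2014, 24.4 ± 1.903 CPM in natural 2013, 25.7 ± 2.54 CPM in LD+FR+TEMP and 23.1 ± 1.12 CPM in lab LD at ZT16. At ZT4 its means were 38.5 ± 16.4 CPM in natural 2014, 21.2 ± 5.08 CPM in natural 2013, 33.9 ± 5.64 CPM in LD+FR+TEMP and 23.9 ± 0.367 CPM in lab LD, and within natural 2014 the 3 morning libraries held 56.3, 23.9 and 35.5 CPM. It was higher in natural 2014 than in natural 2013 at ZT4 (log2 change 0.87 ± 0.201, adjusted p = 0.00159, and 0.49 without natural 2014 ZT4 replicate 1), with overlapping libraries, and it fell at ZT16 in natural 2014 (log2 change -0.92 ± 0.197, adjusted p = 0.000385, and -0.55 without that library). PIP2;4 (AT5G60660) was near the lower limit, with means of 2.28 ± 0.968 CPM in natural 2014, 2.33 ± 0.413 CPM in natural 2013, 3.98 ± 0.922 CPM in LD+FR+TEMP and 2.54 ± 0.468 CPM in lab LD at ZT16. At ZT4 its means were 3.74 ± 0.307 CPM in natural 2014, 3.73 ± 0.682 CPM in natural 2013, 3.76 ± 0.754 CPM in LD+FR+TEMP and 3.47 ± 0.0403 CPM in lab LD, and it was lower in the outdoor mean than in LD+FR+TEMP at ZT16 (log2 change -0.796 ± 0.22, adjusted p = 0.0062), a call that was lost without LD+FR+TEMP ZT16 replicate 1 (-0.63).

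Of the 6 vacuolar channels, TIP2;1 and TIP2;2 were called lower at ZT16 in all 4 settings, TIP1;1, TIP1;2 and TIP2;3 in some of them and TIP4;1 in no setting. TIP2;1 (AT3G16240, chr3:5505360-5507050, plus strand), which carries water and ammonia into the vacuole, fell in the evening in every setting. Its ZT16 levels were 2058, 3035 and 2900 CPM in natural 2014, 1797, 1595 and 2173 CPM in natural 2013, 1998, 2222 and 1490 CPM in LD+FR+TEMP and 1318, 1355 and 1578 CPM in lab LD. At ZT4 it stood at 3941, 5303 and 3739 CPM in natural 2014, 5321, 4428 and 3879 CPM in natural 2013, 2911, 3038 and 2972 CPM in LD+FR+TEMP and 2938, 2995 and 2763 CPM in lab LD. The outdoor morning libraries lay above all indoor libraries. It fell at ZT16 by -0.7 ± 0.15 in natural 2014, -1.29 ± 0.16 in natural 2013, -0.64 ± 0.15 in LD+FR+TEMP and -1.03 ± 0.16 in lab LD, each past the test. TIP2;1 rose relative to lab LD in natural 2013 at ZT4 (log2 change 0.65 ± 0.15, adjusted p = 0.00255) and in natural 2014 at ZT16 (log2 change 0.91 ± 0.16, adjusted p = 6.02e-05) and ZT4 (0.58 ± 0.15). Outdoors, the mean was above LD+FR+TEMP at ZT4 (log2 change 0.58 ± 0.14, adjusted p = 0.00222). The annotation has 2 genes on the opposite strand that overlap TIP2;1, the longer overlap being 445 bases, and without the strand of counting their reads cannot be told apart from its own.

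TIP2;2 (AT4G17340, chr4:9698940-9700472, plus strand), a vacuolar water channel, had ZT16 levels of 82.7, 108 and 92.2 CPM in natural 2014, 68.8, 62.03 and 75.2 CPM in natural 2013, 116, 118 and 117 CPM in LD+FR+TEMP and 123, 124 and 132 CPM in lab LD. At ZT4 it had 251, 155 and 177 CPM in natural 2014, 136, 137 and 104 CPM in natural 2013, 161, 156 and 139.8 CPM in LD+FR+TEMP and 154, 180.1 and 171 CPM in lab LD. Natural 2013 was the lowest setting at both times. It fell relative to lab LD in natural 2013 at ZT16 (log2 change -0.88 ± 0.14, adjusted p = 3.78e-05) and at ZT4 (log2 change -0.42 ± 0.14, adjusted p = 0.0213), the second lost without natural 2013 ZT4 replicate 3 (-0.301) or lab LD ZT4 replicate 2 (-0.37). Its fall at ZT16 relative to ZT4 was -1.05 ± 0.14 in natural 2014 and -0.87 ± 0.14 in natural 2013. In LD+FR+TEMP (-0.38 ± 0.13) and in lab LD (-0.41 ± 0.13) the test was also passed. The LD+FR+TEMP call was lost without LD+FR+TEMP ZT4 replicate 1 (-0.34), LD+FR+TEMP ZT4 replicate 2 (-0.37), LD+FR+TEMP ZT16 replicate 1 (-0.38), LD+FR+TEMP ZT16 replicate 2 (-0.39) or LD+FR+TEMP ZT16 replicate 3 (-0.38). The lab LD call was lost without lab LD ZT4 replicate 2 (-0.36), lab LD ZT4 replicate 3 (-0.404), lab LD ZT16 replicate 1 (-0.395) or lab LD ZT16 replicate 2 (-0.399).

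TIP2;3 (AT5G47450, chr5:19248249-19249622, minus strand), a water and ammonia channel, had the second widest range of the family, with group means that spanned 19.4-fold. In the evening it measured 8.001, 38.1 and 22.2 CPM in natural 2014, 3.47, 4.32 and 5.45 CPM in natural 2013, 77.98, 113 and 65.5 CPM in LD+FR+TEMP and 16.2, 22.4 and 22.6 CPM in lab LD. In the morning it measured 45.8, 41.9 and 49.1 CPM in natural 2014, 28.1, 22.9 and 7.77 CPM in natural 2013, 64.7, 67.9 and 40.2 CPM in LD+FR+TEMP and 36.9, 33.04 and 40.6 CPM in lab LD. The evening level was highest in LD+FR+TEMP and lowest in natural 2013, and the natural 2014 evening libraries spread from 8 to 38.1 CPM. It rose in LD+FR+TEMP relative to lab LD at ZT16 (log2 change 2.07 ± 0.34, adjusted p = 0.00175). It fell in natural 2013 relative to lab LD at ZT16 (log2 change -2.198 ± 0.45, adjusted p = 0.000698). The outdoor mean was below LD+FR+TEMP at ZT16 (log2 change -3.09 ± 0.31, adjusted p = 5.61e-08). Natural 2014 exceeded natural 2013 at ZT16 (log2 change 2.36 ± 0.46, adjusted p = 0.00271), and by 1.75 without natural 2014 ZT16 replicate 2. Natural 2014 also exceeded natural 2013 at ZT4 (log2 change 1.23 ± 0.37, adjusted p = 0.0127), a call that was lost without natural 2013 ZT4 replicate 3 (0.83). The daily fall passed the test in natural 2013 (log2 change -2.13 ± 0.47, adjusted p = 0.00089) and in natural 2014 (-1.003 ± 0.36, lost without natural 2014 ZT4 replicate 3 (-0.95), natural 2014 ZT16 replicate 1 (-0.59) or natural 2014 ZT16 replicate 3 (-0.99)).

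TIP1;2 (AT3G26520, chr3:9722443-9723904, minus strand), a vacuolar water channel of many tissues, and TIP2;1 took most of the TIP reads. TIP1;2 took more reads than TIP2;1 in every evening group and in the indoor mornings, and TIP2;1 took more in the outdoor mornings. At ZT16 the libraries held 3091, 3741 and 3027 CPM in natural 2014, 2303, 2042 and 2465 CPM in natural 2013, 2922, 3224 and 2201 CPM in LD+FR+TEMP and 1824, 2148 and 2081 CPM in lab LD. At ZT4 the libraries held 3102, 3127 and 2822 CPM in natural 2014, 3314, 2757 and 2790 CPM in natural 2013, 3744, 3355 and 3044 CPM in LD+FR+TEMP and 3788, 3726 and 3430 CPM in lab LD. The lab LD evening levels lay below those of natural 2014 and LD+FR+TEMP and overlapped those of natural 2013, while the lab LD morning levels lay above those of both outdoor years. TIP1;2 fell at ZT16 in lab LD (log2 change -0.85 ± 0.12, adjusted p = 4.04e-06) and in natural 2013 (log2 change -0.38 ± 0.12, adjusted p = 0.014), the second lost without natural 2013 ZT4 replicate 1 (-0.29) or natural 2013 ZT16 replicate 2 (-0.31). In LD+FR+TEMP its difference was -0.28 ± 0.12 and did not pass the test, and in natural 2014 its difference of 0.12 ± 0.12 did not pass the test. At ZT16 it was higher than in lab LD in natural 2014 (log2 change 0.704 ± 0.12, adjusted p = 5.59e-05) and in LD+FR+TEMP (log2 change 0.46 ± 0.12, adjusted p = 0.0345). The LD+FR+TEMP call was lost without LD+FR+TEMP ZT16 replicate 1 (0.43), LD+FR+TEMP ZT16 replicate 2 (0.33), lab LD ZT16 replicate 1 (0.39), lab LD ZT16 replicate 2 (0.51) or lab LD ZT16 replicate 3 (0.49). Natural 2014 exceeded natural 2013 at ZT16 (log2 change 0.53 ± 0.12, adjusted p = 0.00829), a call that was lost without natural 2013 ZT16 replicate 2 (0.46) or natural 2014 ZT16 replicate 2 (0.43).

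TIP1;1 (AT2G36830, chr2:15445294-15446621, plus strand), the archetypal vacuolar water channel, departed in 1 group. TIP1;1 stood at 1093, 1102 and 1141 CPM in natural 2014, 1051, 929 and 1113 CPM in natural 2013, 1195, 1433 and 1028 CPM in LD+FR+TEMP and 998, 1119 and 1040 CPM in lab LD at ZT16. The ZT4 levels were 2717, 1253 and 1734 CPM in natural 2014, 976, 836 and 809.6 CPM in natural 2013, 894, 964 and 837 CPM in LD+FR+TEMP and 903, 843 and 853 CPM in lab LD. All natural 2014 morning libraries exceeded the other morning libraries, replicate 1 by most. At ZT4 it was higher in natural 2014 than in natural 2013 (log2 change 1.12 ± 0.17, adjusted p = 9.17e-06, and 0.77 without that replicate) and than in lab LD (log2 change 1.13 ± 0.17, adjusted p = 3.85e-06). The gene fell at ZT16 in natural 2014 (log2 change -0.77 ± 0.16, adjusted p = 0.000357, and by -0.43 without that replicate), while the values in natural 2013 (0.24 ± 0.16), LD+FR+TEMP (0.44 ± 0.16) and lab LD (0.28 ± 0.16) were above 0 and did not pass the test.

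TIP4;1 (AT2G25810, chr2:11012499-11014171, plus strand), a vacuolar channel known from roots, was just above the limit of 2 CPM, which it reached only through the indoor groups, so that its lower outdoor level was partly set by the rule of inclusion. Evening levels were 0.539, 0.747 and 1.53 CPM in natural 2014, 0.578, 0.9599 and 0.648 CPM in natural 2013, 1.97, 2.03 and 3.51 CPM in LD+FR+TEMP and 2.51, 2.57 and 1.75 CPM in lab LD. Morning levels were 1.52, 0.572 and 0.909 CPM in natural 2014, 1.73, 1.41 and 0.648 CPM in natural 2013, 2.05, 2.101 and 2.13 CPM in LD+FR+TEMP and 1.42, 1.15 and 2.19 CPM in lab LD. The evening levels were lower outdoors than indoors in all libraries. TIP4;1 was lower than in lab LD at ZT16 in natural 2014 (log2 change -1.29 ± 0.37, adjusted p = 0.00801) and in natural 2013 (log2 change -1.61 ± 0.42, adjusted p = 0.00484), the first lost without natural 2014 ZT16 replicate 1 (-1.01). Outdoors, the mean was below LD+FR+TEMP at ZT16 (log2 change -1.59 ± 0.32, adjusted p = 0.000398) and at ZT4 (log2 change -0.92 ± 0.33, adjusted p = 0.035), the second lost without natural 2013 ZT4 replicate 3 (-0.74), natural 2014 ZT4 replicate 2 (-0.77), natural 2014 ZT4 replicate 3 (-0.89), LD+FR+TEMP ZT4 replicate 1 (-0.93), LD+FR+TEMP ZT4 replicate 2 (-0.91) or LD+FR+TEMP ZT4 replicate 3 (-0.91).

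The NIP genes took few reads. NIP5;1 (AT4G10380, chr4:6431161-6435396, minus strand), the boric acid channel of root uptake, took the largest share of the NIP reads. Its ZT16 levels were 13.1, 16.2 and 15.7 CPM in natural 2014, 8.67, 14.3 and 10.1 CPM in natural 2013, 41.6, 50.04 and 35.6 CPM in LD+FR+TEMP and 22.5, 30.7 and 30.2 CPM in lab LD. At ZT4 it stood at 22.5, 22.3 and 29.5 CPM in natural 2014, 12.7, 18.02 and 22.1 CPM in natural 2013, 45.1, 36.7 and 56.3 CPM in LD+FR+TEMP and 24.8, 22.98 and 25.3 CPM in lab LD. Every outdoor evening library lay below every indoor library, and LD+FR+TEMP was the highest setting at both times. At ZT16 it fell relative to lab LD in natural 2014 (log2 change -0.89 ± 0.19, adjusted p = 0.000669) and in natural 2013 (log2 change -1.33 ± 0.203, adjusted p = 2.65e-05). It rose in LD+FR+TEMP relative to lab LD at ZT4 (log2 change 0.92 ± 0.18, adjusted p = 0.000729). The outdoor mean was below LD+FR+TEMP at ZT16 (log2 change -1.72 ± 0.16, adjusted p = 1.39e-08) and at ZT4 (log2 change -1.14 ± 0.16, adjusted p = 4.41e-06). The daily fall passed the test in natural 2014 (-0.73 ± 0.201) and in natural 2013 (-0.67 ± 0.22, lost without natural 2013 ZT4 replicate 3 (-0.45), natural 2013 ZT16 replicate 1 (-0.53) or natural 2013 ZT16 replicate 3 (-0.603)). The indoor values of -0.12 ± 0.17 in LD+FR+TEMP and 0.19 ± 0.18 in lab LD did not pass it.

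NIP6;1 (AT1G80760, chr1:30350539-30352208, minus strand), the boric acid channel of shoot nodes and young leaves, had a steep daily fall in every setting. In the evening it measured 3.33, 3.55 and 2.96 CPM in natural 2014, 3.03, 3.84 and 3.37 CPM in natural 2013, 4.398, 3.82 and 4.64 CPM in LD+FR+TEMP and 3.55, 5.14 and 5.56 CPM in lab LD. In the morning it measured 26.9, 22.7 and 22.1 CPM in natural 2014, 16.5, 16.5 and 17.2 CPM in natural 2013, 15.7, 17.4 and 17.2 CPM in LD+FR+TEMP and 12.7, 13.7 and 11.2 CPM in lab LD. Evening levels were a small part of morning levels in every setting, and natural 2014 had the highest morning level. It fell at ZT16 by -2.86 ± 0.15, adjusted p = 2.72e-14 in natural 2014, -2.28 ± 0.16, adjusted p = 1.71e-11 in natural 2013, -1.97 ± 0.14, adjusted p = 1.55e-11 in LD+FR+TEMP and -1.399 ± 0.14, adjusted p = 9.12e-09 in lab LD. At ZT4 it was higher than in lab LD in natural 2014 (log2 change 0.93 ± 0.13, adjusted p = 1.48e-06). It was also called higher there in natural 2013 (log2 change 0.414), a call lost without natural 2013 ZT4 replicate 3 or lab LD ZT4 replicate 3. In LD+FR+TEMP it was higher as well (log2 change 0.42 ± 0.12, adjusted p = 0.0193). That call was lost without LD+FR+TEMP ZT4 replicate 2 (0.39), LD+FR+TEMP ZT4 replicate 3 (0.399) or lab LD ZT4 replicate 3 (0.35). At ZT16 it was lower than in lab LD in natural 2014 (log2 change -0.53 ± 0.17, adjusted p = 0.014), a call lost without natural 2014 ZT16 replicate 3 (-0.47), lab LD ZT16 replicate 2 (-0.47) or lab LD ZT16 replicate 3 (-0.404) and in the fit of only the groups compared. The evening difference in natural 2013 (log2 change -0.47 ± 0.18, adjusted p = 0.0473) was lost without any of 5 libraries, and with DESeq2, no filter, only the groups compared or a replicate block. The gene overlaps a gene on the opposite strand by 26 bases.

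NIP1;2 (AT4G18910, chr4:10366044-10368510, plus strand), a channel known to carry aluminium malate in root cells, was lower in natural 2014 than in lab LD at both times. At ZT16 the libraries held 7.19, 7.19 and 7.44 CPM in natural 2014, 9.97, 9.48 and 9.08 CPM in natural 2013, 11.2, 11.5 and 13.1 CPM in LD+FR+TEMP and 12.2, 12.8 and 10.3 CPM in lab LD. At ZT4 the libraries held 8.95, 6.57 and 5.61 CPM in natural 2014, 9.94, 11.4 and 9.28 CPM in natural 2013, 8.81, 8.84 and 9.46 CPM in LD+FR+TEMP and 13.8, 13.9 and 12.2 CPM in lab LD. Lab LD was the highest setting at ZT4. NIP1;2 fell relative to lab LD in natural 2014 at ZT16 (log2 change -0.69 ± 0.13, adjusted p = 0.000181) and at ZT4 (log2 change -0.93 ± 0.14, adjusted p = 7.44e-06). At ZT4 it also fell in LD+FR+TEMP (log2 change -0.56 ± 0.12, adjusted p = 0.00235) and in natural 2013 (log2 change -0.39 ± 0.13, adjusted p = 0.0256), the natural 2013 call lost without natural 2013 ZT4 replicate 1 (-0.37), natural 2013 ZT4 replicate 3 (-0.32), lab LD ZT4 replicate 1 (-0.36) or lab LD ZT4 replicate 2 (-0.36). It was lower in natural 2014 than in natural 2013 at ZT4 (log2 change -0.54 ± 0.15, adjusted p = 0.00806), a call that was lost without natural 2014 ZT4 replicate 3 (-0.404). In LD+FR+TEMP it rose at ZT16 (log2 change 0.4 ± 0.12, adjusted p = 0.0182), which was lost without LD+FR+TEMP ZT4 replicate 1 (0.38), LD+FR+TEMP ZT4 replicate 2 (0.39) or LD+FR+TEMP ZT16 replicate 3 (0.33).

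NIP1;1 (AT4G19030, chr4:10421521-10423508, minus strand), an arsenite channel, likewise reached 2 CPM only indoors. NIP1;1 stood at 0.4495, 0.374 and 0.611 CPM in natural 2014, 0.289, 0.5999 and 0.389 CPM in natural 2013, 2.04, 1.85 and 2.69 CPM in LD+FR+TEMP and 1.29, 2.27 and 0.967 CPM in lab LD at ZT16. The ZT4 levels were 0.169, 0.429 and 0.455 CPM in natural 2014, 0.694, 0.627 and 0.5396 CPM in natural 2013, 2.595, 1.96 and 1.23 CPM in LD+FR+TEMP and 0.801, 0.409 and 2.81 CPM in lab LD. The outdoor libraries stayed under 1 CPM, and the lab LD libraries varied widely at ZT4. Outdoors, the mean was below LD+FR+TEMP at ZT16 (log2 change -2.25 ± 0.43, adjusted p = 0.000294) and at ZT4 (log2 change -2.01 ± 0.47, adjusted p = 0.00195). Relative to lab LD it was lower at ZT16 in natural 2014 (log2 change -1.65 ± 0.54, adjusted p = 0.0186) and in natural 2013 (log2 change -1.77 ± 0.595, adjusted p = 0.0267). The natural 2014 call was lost without natural 2014 ZT16 replicate 1 (-1.61), natural 2014 ZT16 replicate 2 (-1.501) or lab LD ZT16 replicate 2 (-1.23), and the natural 2013 call without natural 2013 ZT16 replicate 1 (-1.58), natural 2013 ZT16 replicate 3 (-1.7) or lab LD ZT16 replicate 2 (-1.35). At ZT4 NIP1;1 was also called lower in natural 2014 than in lab LD (log2 change -1.856). That call was lost without natural 2014 ZT4 replicate 1 (-1.567), replicate 2 or replicate 3. It was also lost without lab LD ZT4 replicate 3 (-0.787) and in the fit of only the groups compared. As for TIP4;1, the rule of inclusion favours a lower outdoor level.

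The SIP genes, channels of the endoplasmic reticulum, varied little. SIP1;1 (AT3G04090, chr3:1071984-1074244, minus strand) had 44.3, 41.3 and 44.6 CPM in natural 2014, 41.9, 41.8 and 44.7 CPM in natural 2013, 34.9, 32.4 and 36.7 CPM in LD+FR+TEMP and 40.1, 35.9 and 36.2 CPM in lab LD at ZT16. At ZT4 it had 48.5, 42.2 and 45.9 CPM in natural 2014, 44.6, 45.5 and 37.7 CPM in natural 2013, 36.9, 37.4 and 32.97 CPM in LD+FR+TEMP and 38.2, 36.6 and 35.2 CPM in lab LD. Its outdoor libraries all lay above its LD+FR+TEMP libraries. The outdoor mean was above LD+FR+TEMP at ZT16 (log2 change 0.32 ± 0.08, adjusted p = 0.00399), and no daily change passed the test. SIP2;1 (AT3G56950, chr3:21078297-21079925, minus strand) had ZT16 levels of 20.4, 16.3 and 18.04 CPM in natural 2014, 15.6, 15.7 and 12.3 CPM in natural 2013, 16.5, 14.7 and 18.4 CPM in LD+FR+TEMP and 23, 17.9 and 19.2 CPM in lab LD. At ZT4 it had 11.2, 16.1 and 15 CPM in natural 2014, 15.7, 14.1 and 15.9 CPM in natural 2013, 13.9, 15.7 and 11.8 CPM in LD+FR+TEMP and 12.1, 15.1 and 14.1 CPM in lab LD. It rose at ZT16 in lab LD (log2 change 0.55 ± 0.14, adjusted p = 0.00434), where the evening and morning libraries did not overlap. SIP1;2 (AT5G18290, chr5:6055028-6058368, minus strand) had 2.61, 2.71 and 2.55 CPM in natural 2014, 3.32, 3.24 and 4.15 CPM in natural 2013, 3.68, 3.39 and 4.64 CPM in LD+FR+TEMP and 4.41, 3.59 and 4.17 CPM in lab LD at ZT16. At ZT4 it had 2.87, 2.57 and 1.67 CPM in natural 2014, 3.7, 4.55 and 3.56 CPM in natural 2013, 2.73, 3.26 and 3.15 CPM in LD+FR+TEMP and 2.96, 4.498 and 3.04 CPM in lab LD, with the lowest mean in natural 2014. It was lower in natural 2014 than in natural 2013 at ZT4 (log2 change -0.72 ± 0.24, adjusted p = 0.0245), a call that was lost without natural 2013 ZT4 replicate 2 (-0.62) or natural 2014 ZT4 replicate 3 (-0.53). Genes on the opposite strand overlap SIP1;2 by up to 444 bases and SIP2;1 by up to 203 bases.

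The size of the daily change differed between settings for several of these genes. Relative to lab LD, the change from ZT4 to ZT16 differed in natural 2014 for 15 of the 26 genes (11 with a lower and 4 with a higher log2 fold change), where 30.3% of all genes differed. In natural 2013 it differed for 5 (4 lower, 1 higher), where 17.4% of all genes did. In LD+FR+TEMP it differed for 0, where 4.24% of all genes did. Beside that count of 0, 4 genes had a higher and 1 a lower change at an unadjusted p under 0.05, and DESeq2 called 1. Between natural 2014 and natural 2013 it differed for 8 (6 lower, 2 higher), where 17.1% of all genes did. The natural 2014 and natural 2013 counts rest on the same lab LD libraries. The share in natural 2014 was above that of all genes, and the share in natural 2013 was near it. NIP6;1, NIP5;1 and PIP1;1 had a lower log2 fold change from ZT4 to ZT16 in both outdoor years than in lab LD, and PIP2;8 a higher one. The natural 2013 call was lost without any 1 of 7 libraries for NIP5;1 and any 1 of 9 for PIP1;1.

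Promoter windows of 300 bases before the gene start were read from TAIR10.1 (RefSeq annotation) for the members with the strongest or opposite daily changes, so that the reader can set sequence beside level. Capitals mark matches, on either strand, to 6 motifs known from daily and stress regulation.
PIP2;1, chr3:19805731-19806030, minus strand: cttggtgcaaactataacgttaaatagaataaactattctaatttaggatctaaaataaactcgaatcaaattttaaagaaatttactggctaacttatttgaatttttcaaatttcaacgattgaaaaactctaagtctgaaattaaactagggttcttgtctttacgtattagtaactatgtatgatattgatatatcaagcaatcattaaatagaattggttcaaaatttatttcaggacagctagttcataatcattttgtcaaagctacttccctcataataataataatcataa
PIP2;2, chr2:15615023-15615322, minus strand: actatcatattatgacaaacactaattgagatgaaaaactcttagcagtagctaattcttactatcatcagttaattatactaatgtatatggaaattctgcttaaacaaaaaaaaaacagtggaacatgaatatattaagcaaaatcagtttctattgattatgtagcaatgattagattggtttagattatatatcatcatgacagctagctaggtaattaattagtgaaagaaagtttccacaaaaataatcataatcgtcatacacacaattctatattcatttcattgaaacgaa
PIP2;3, chr2:15617335-15617634, plus strand: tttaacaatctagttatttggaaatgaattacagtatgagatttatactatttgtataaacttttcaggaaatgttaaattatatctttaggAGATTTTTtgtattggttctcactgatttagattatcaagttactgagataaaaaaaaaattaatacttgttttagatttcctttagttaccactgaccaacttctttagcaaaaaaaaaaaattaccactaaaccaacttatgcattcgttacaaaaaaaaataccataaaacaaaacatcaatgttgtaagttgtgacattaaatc
PIP2;8, chr2:7301034-7301333, plus strand: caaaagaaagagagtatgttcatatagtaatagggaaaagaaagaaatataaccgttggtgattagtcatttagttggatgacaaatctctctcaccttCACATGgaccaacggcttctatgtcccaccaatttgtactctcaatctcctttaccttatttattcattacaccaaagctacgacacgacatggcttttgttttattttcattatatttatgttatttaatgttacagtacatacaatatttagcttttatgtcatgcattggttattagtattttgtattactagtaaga
NIP6;1, chr1:30352209-30352508, minus strand: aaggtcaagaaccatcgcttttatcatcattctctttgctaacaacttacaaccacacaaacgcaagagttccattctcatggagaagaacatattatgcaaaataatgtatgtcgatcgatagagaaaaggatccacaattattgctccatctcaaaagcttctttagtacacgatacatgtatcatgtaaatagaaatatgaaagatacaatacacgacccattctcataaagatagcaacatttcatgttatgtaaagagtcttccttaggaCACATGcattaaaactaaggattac
The PIP2;3 window holds a CCA1-binding site at position -208 from the gene start. The PIP2;8 window holds the motif CACATG at -201 and the NIP6;1 window the same motif at -25. The PIP2;1 and PIP2;2 windows hold none of the 6 motifs. Over the 26 members, the motif CACATG was found in 9 (34.6%), against 13.1% of the 27438 promoters of the same length. The genes were PIP1;2, PIP2;5, PIP2;7, PIP2;8, TIP2;1, TIP4;1, NIP1;2, NIP6;1 and SIP1;1, which include genes that fell in the evening and PIP2;8, which rose. The abscisic acid response core ACGTG was found in 2 members (7.69%), TIP1;1 and SIP1;1, against 25.6% of all promoters. The CCA1-binding site AAAAATCT was found in 1 member (3.85%), against 7.94%, and the heat shock core GAANNTTC in 3 (11.5%), PIP2;7, TIP2;3 and SIP2;1, against 11.5%. The G-box CACGTG, which contains the abscisic acid response core, and the evening element AAAATATCT were found in 0 members, against 7.09% and 2.79% of all promoters. These matches describe the letters of the windows and not the binding of a factor.

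Of 10 genes whose products handle aquaporin proteins, more rose than fell in the evening in natural 2014, natural 2013 and LD+FR+TEMP. The list holds SNARE and membrane contact proteins that carry PIPs to the plasma membrane (SYP121, SYP61, VAMP721 and VAP27-1), proteins that lead them to degradation (TSPO and the ubiquitin ligases RMA1, RMA2 and RMA3) and kinases that act on them (OST1 and SIRK1). At ZT16 relative to ZT4, 5 rose and 1 fell in natural 2014, 5 rose and 1 fell in natural 2013, 5 rose in LD+FR+TEMP, and 1 fell in lab LD. Of all genes, 23.2%, 17.6% and 11.4% rose in the first 3 settings and 11.5% fell in lab LD. RMA1, known to keep PIP2;1 from the plasma membrane, averaged 23.4 ± 6.24 CPM at ZT16 and 4.67 ± 0.842 CPM at ZT4 in natural 2014 (log2 change 2.31 ± 0.23, adjusted p = 4.15e-09). In natural 2013 it averaged 18.8 ± 3.72 CPM at ZT16 and 6.56 ± 1.44 CPM at ZT4 (log2 change 1.496 ± 0.22, adjusted p = 3.91e-06), and in lab LD 10.3 ± 1.57 and 12.2 ± 1.32 CPM. RMA2 rose at ZT16 relative to lab LD in natural 2014 (log2 change 1.32 ± 0.17, adjusted p = 1.73e-06). Against lab LD, 5 of the 10 rose at ZT16 in natural 2014 and 5 in natural 2013, and 1 fell in natural 2014, where 18.5% and 14.8% of all genes rose. At ZT4, 1 rose and 3 fell in natural 2014, 3 rose and 2 fell in natural 2013, and 1 rose and 3 fell in LD+FR+TEMP, where 22.1%, 14.7% and 8.34% of all genes rose and 22.1%, 14.3% and 8.6% fell. OST1, the kinase of abscisic acid signalling that phosphorylates PIP2;1, was among the risers at ZT4 in natural 2014 (log2 change 0.92 ± 0.15, adjusted p = 1.43e-05), natural 2013 (log2 change 0.81 ± 0.15, adjusted p = 0.000176) and LD+FR+TEMP (log2 change 0.56 ± 0.14, adjusted p = 0.00735). TSPO averaged 0.657 ± 0.496 CPM in natural 2014, 0.036 ± 0.0623 CPM in natural 2013 and 1.65 ± 1.17 CPM in LD+FR+TEMP at ZT4, against 25.9 ± 20.4 CPM in lab LD, where the libraries differed widely.

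Genes of water deficit and abscisic acid (13) were often lower outdoors than in lab LD, most of them in the morning of natural 2013. At ZT4, 9 fell in natural 2013, 2 rose and 5 fell in natural 2014, and 3 fell in LD+FR+TEMP, where 14.3%, 22.1% and 8.6% of all genes fell. At ZT16, 6 fell in natural 2014 and 4 in natural 2013, where 17.4% and 14.3% of all genes fell. P5CS1, the enzyme of proline synthesis under drought, averaged 32.2 ± 10.1 CPM in natural 2014 and 19.4 ± 2.83 CPM in natural 2013, against 138 ± 66.2 CPM in lab LD (log2 fold changes -2.095 ± 0.28, adjusted p = 7.92e-07 and -2.82 ± 0.29, adjusted p = 9.62e-08). The 3 lab LD libraries at ZT4 differed from each other, with summed levels of 679, 1052 and 1520 CPM, and those of LD+FR+TEMP held 709, 758 and 800.3 CPM. The part of this spread in the aquaporin comparisons with lab LD was not tested. Natural 2014 exceeded natural 2013 at ZT4 for 6 of the 13 and was lower for 1, where 16.5% of all genes were higher. HB12, a transcription factor induced by abscisic acid, averaged 74.4 ± 10.2 CPM in natural 2014 and 22.8 ± 3.82 CPM in natural 2013 at ZT4 (log2 change 1.71 ± 0.17, adjusted p = 2.37e-08). In the evening relative to the morning, 8 fell in natural 2014, 3 in natural 2013, 4 in LD+FR+TEMP and 7 in lab LD, and 1 rose, P5CS1 in natural 2013 (log2 change 1.37 ± 0.29, adjusted p = 0.000455). The shares of all genes that fell were 22.5%, 17.8%, 12.1% and 11.5%. HB12 fell at ZT16 by -4.02 ± 0.198, adjusted p = 5.39e-15 in natural 2014 and -1.44 ± 0.17, adjusted p = 2.2e-07 in lab LD.

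Of the boron exporter genes, BOR1 was higher outdoors than in lab LD at both times, and BOR2 was not called higher there in the evening. BOR1, which loads boron into the xylem, averaged 19.1 ± 1.49 CPM in natural 2014 and 23.7 ± 1.05 CPM in natural 2013 at ZT16, against 15 ± 0.983 CPM in lab LD. It rose there in natural 2014 (log2 change 0.35 ± 0.14, adjusted p = 0.0461) and in natural 2013 (log2 change 0.66 ± 0.14, adjusted p = 0.00069). BOR2 differed there by -0.39 ± 0.25 in natural 2014 and -0.15 ± 0.26 in natural 2013, which did not pass the test. At ZT4, where NIP5;1 was not called, BOR1 rose by 1.03 ± 0.14, adjusted p = 1.45e-06 in natural 2014 and 0.85 ± 0.14, adjusted p = 5.43e-05 in natural 2013, and BOR2 rose in natural 2013 (0.86 ± 0.27, adjusted p = 0.0172). Against LD+FR+TEMP the outdoor mean of BOR2 was lower at ZT16 (-0.701 ± 0.204, adjusted p = 0.0105) and at ZT4 (-0.81 ± 0.21, adjusted p = 0.00454), and that of BOR1 was higher (0.46 ± 0.12 and 0.47 ± 0.12). At ZT4 in LD+FR+TEMP, both tested exporters of the 3 listed rose relative to lab LD, BOR1 by 0.47 ± 0.14, adjusted p = 0.0183 and BOR2 by 1.36 ± 0.24, adjusted p = 0.000278. BOR4 was too low to test. Of the 3 vacuolar proton pump genes, AVP1, which energises the membrane in which TIPs lie, was higher than in lab LD at ZT4 in natural 2014 (log2 change 0.82 ± 0.099, adjusted p = 2.39e-07), natural 2013 (log2 change 0.8 ± 0.099, adjusted p = 1.62e-06) and LD+FR+TEMP (log2 change 0.62 ± 0.099, adjusted p = 9.08e-05), and VHA-A2 was lower in natural 2014 (log2 change -0.77 ± 0.19, adjusted p = 0.00204) and natural 2013 (log2 change -0.65 ± 0.18, adjusted p = 0.00945).

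**Figure D5:**
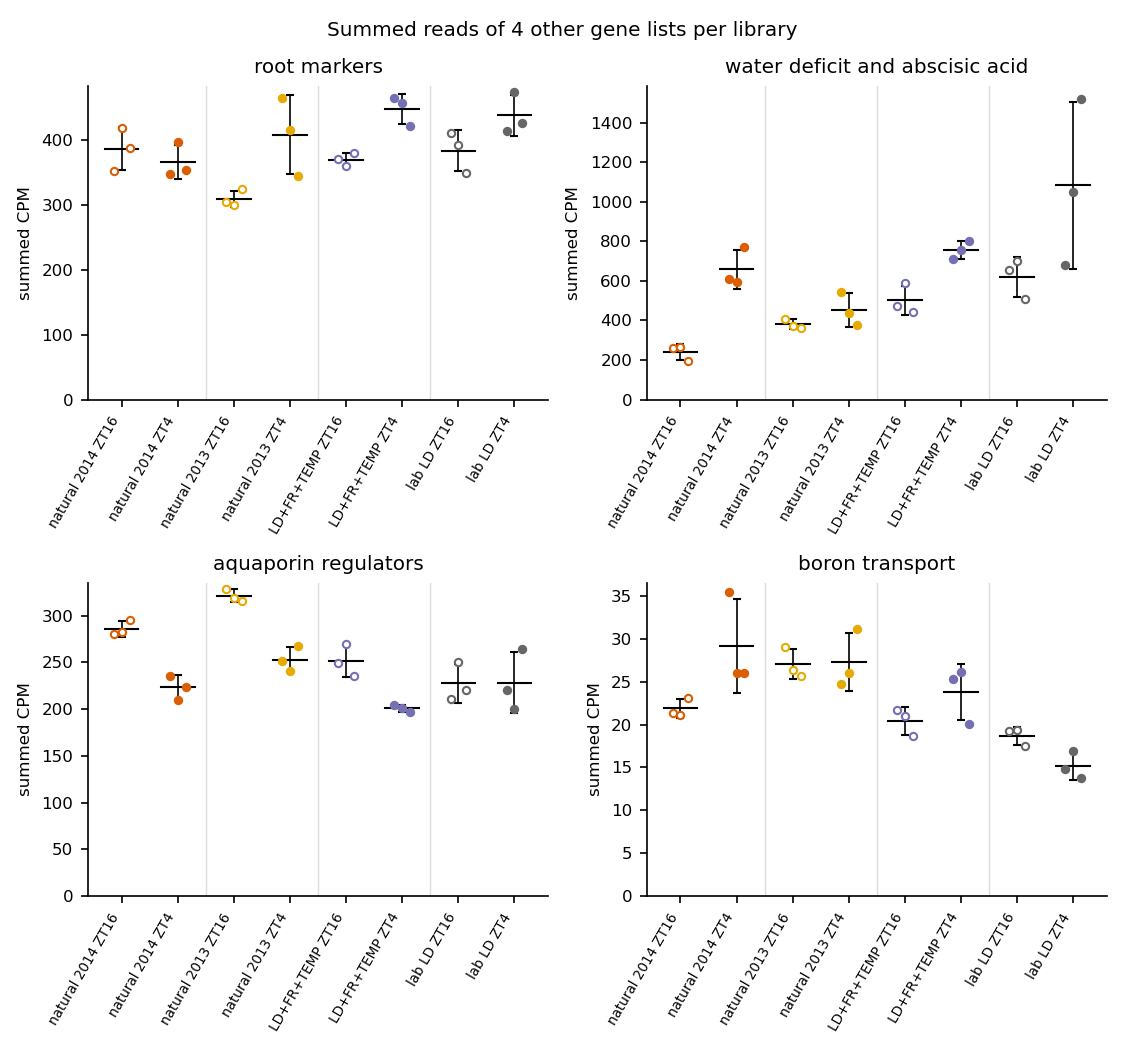
Summed CPM of 17 root genes, 13 genes of water deficit and abscisic acid, 10 regulators of aquaporins and 3 boron exporters in each library (points), with the group mean (line) and 1 SD (bar). The root sums are mostly reads of BGLU23. The water deficit sums of lab LD at ZT4 spread from 679 to 1520 CPM, and the boron exporters are lowest in lab LD at ZT4.

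Root and floral genes moved with some of the same comparisons, and their part in the aquaporin results was not tested. In the outdoor mean against LD+FR+TEMP, 10 of the 16 tested root genes fell at ZT16 and 7 at ZT4, with median log2 fold changes of -0.931 and -0.556, in the comparison in which NIP5;1, TIP2;3 and TIP4;1 fell and 16.3% and 14.8% of all genes did. In LD+FR+TEMP against lab LD, 4 root genes rose at ZT16 and 2 at ZT4, where 1.65% and 8.34% of all genes did. CASP1, which forms the Casparian strip, averaged 11.7 ± 1.67 CPM in LD+FR+TEMP, against 5.38 ± 0.314 CPM in lab LD at ZT16 (log2 change 1.12 ± 0.23, adjusted p = 0.0116). Against lab LD at ZT16, 1 root gene fell in natural 2014 and 4 in natural 2013, where 17.4% and 14.3% of all genes fell. Against lab LD at ZT4, 3 root genes rose and 1 fell in natural 2013 (all genes, 14.7% and 14.3%). In natural 2014, 1 rose and 3 fell there (all genes, 22.1% and 22.1%). From ZT4 to ZT16, 4 fell in natural 2014, 6 in natural 2013, 4 in LD+FR+TEMP and 1 in lab LD, where 22.5%, 17.8%, 12.1% and 11.5% of all genes fell. In natural 2014, 1 root gene rose from ZT4 to ZT16, where 23.2% of all genes did. No root gene had a group mean of 0, and the lowest was RHD6. Of the 6 leaf genes, 6 rose relative to lab LD in natural 2014 and 4 in natural 2013 at ZT4 (all genes, 22.1% and 14.7%), among them RCA, Rubisco activase (log2 change 0.97 ± 0.09, adjusted p = 2.37e-09 in natural 2014 and 0.67 ± 0.09, adjusted p = 4.08e-06 in natural 2013). The 6 floral organ genes summed to 11.98 ± 4.47 CPM in natural 2014 and 13.97 ± 2.24 CPM in natural 2013 at ZT16, against 1.69 ± 0.548 CPM in LD+FR+TEMP and 1.55 ± 0.705 CPM in lab LD. Of the 5 tested, 4 rose in natural 2014 and 5 in natural 2013 relative to lab LD at ZT16 (all genes, 18.5% and 14.8%).

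The 7 aquaporins below 2 CPM are those known from seeds, pollen or single tissues. Their highest group means were 0.0684 CPM for TIP1;3 and 0.128 CPM for TIP5;1, known from pollen, 0.434 CPM for TIP3;1 and 0.320 CPM for TIP3;2, known from seeds, 0.0651 CPM for NIP2;1, 0.692 CPM for NIP7;1 and 1.45 CPM for NIP3;1. NIP3;1 was the gene nearest to the limit from below, and NIP1;1 (2.19 CPM) and TIP4;1 (2.504 CPM) were the nearest above it. TIP3;1 was seen at 1.30 CPM in LD+FR+TEMP ZT4 replicate 3 and 1.01 CPM in natural 2013 ZT16 replicate 1, and at or below 0.312 CPM in the other libraries. These were also the libraries in which 8 seed storage genes together had the most reads, 18.3 and 6.79 CPM, and the third was lab LD ZT16 replicate 2 with 5.501 CPM, where TIP3;2 had 0.538 CPM. Only 2 of the seed storage genes passed the filter for testing.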

How the data were processed

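Groups were taken from the labels: 4 settings at ZT4 and ZT16, with 3 libraries each. The deposited tables hold whole-number counts per transcript model (48359 models), which the authors made with bcl2fastq 2.17.1.14, Trimmomatic 0.36, Bowtie2 and edgeR on the TAIR10 build, per the submitters' processing notes. The counting step, its strand and the order of steps are not given in the sources used here. Libraries were made with a 3′ digital gene expression kit, per the labels' protocols, so a count stands for reads near the transcript end. A second, normalized table of the authors was not used. No column was left without a sample (0 columns).

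Counts were summed per locus (27655 loci). With edgeR 4.0.16 (R 4.3.3, limma 3.58.1), filterByExpr (minimum count 10, minimum total 15) kept 18797 loci, TMM scaled the libraries (factors 0.825 to 1.16), and all 24 libraries entered 1 quasi-likelihood fit that had a mean per group, with no block (biological coefficient of variation 0.119). Of the 33 aquaporins, 27 were tested and 26 are reported. The 18 contrasts used its quasi-likelihood F test, p-values were adjusted by the Benjamini-Hochberg method across the loci kept, and a gene was called at 0.05. Standard errors were taken as the absolute log2 fold change over √F. CPM use TMM-scaled library sizes. The code was tested on simulated counts first.

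Levels are printed for each library for members among the 4 higher and 4 lower genes of a contrast with the smallest adjusted p and libraries that do not overlap, and for at least 1 member of each subfamily. Other named lists give up to 2 genes in each direction. Members and lists were chosen with earlier results of these data known. Alternatives were DESeq2 1.42.0, DESeq2 size factors in edgeR, no filter, a fit of only the groups compared, a replicate block and leaving out each library. Gene positions and sequences came from the RefSeq annotation of TAIR10.1, whose promoters were read as 300 bases before the gene start. Tables and figures used Python 3.11.15, numpy 2.4.6, pandas 2.3.3 and matplotlib 3.10.9.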

Additional observations from a re-analysis of the deposited data

Results flagged for a closer look

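For 28 pairs of a gene and a comparison, the change from ZT4 to ZT16 differed between settings by the test of the difference itself (edgeR quasi-likelihood test, adjusted p under 0.05), and they are given as values of 1 setting's log2 change minus that of the other. In natural 2014 against lab LD, the boric acid channel gene NIP6;1 differed by -1.458, NIP5;1 by -0.918 and PIP2;3 by -3.638. The other lower differences there were -1.054 for TIP1;1, -0.947 for PIP2;2, -0.875 for PIP2;5, -0.825 for PIP1;4, -0.812 for PIP1;1, -0.632 for TIP2;2, -0.593 for PIP1;2 and -0.45 for PIP2;1. Higher differences were 0.978 for TIP1;2, 0.824 for PIP1;5, 0.642 for PIP2;8 and 0.388 for PIP2;7. Without natural 2014 ZT4 replicate 1, in which several of these genes were highest, PIP2;3 differed by -2.888, TIP1;1 by -0.715 and PIP2;2 by -0.611, and the calls of PIP2;1, PIP2;5 and TIP2;2 were lost, leaving 12 of 15. Without lab LD ZT4 replicate 3, PIP1;5 differed by 0.515. The PIP2;1 call was also lost without any of 5 other libraries.

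In natural 2013 against lab LD, the differences were -0.882 for NIP6;1, -0.86 for NIP5;1, -0.621 for SIP2;1, -0.525 for PIP1;1 and 0.743 for PIP2;8. Those of NIP6;1 (-1.065 to -0.754) and PIP2;8 (0.65 to 0.844) held without any 1 of the 12 libraries. Those of NIP5;1, SIP2;1 and PIP1;1 were lost without 1 of 7, 6 and 9 of them, with values of -1.099 to -0.645, -0.696 to -0.514 and -0.696 to -0.414.

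In natural 2014 against natural 2013, lower differences were -2.523 for PIP2;3, -1.141 for PIP2;5, -1.012 for TIP1;1, -0.976 for PIP2;2, -0.529 for PIP2;1 and -0.525 for PIP1;4, and higher ones 1.12 for PIP1;5 and 0.503 for TIP1;2. PIP1;5 held without any 1 library (1.013 to 1.252). Without natural 2014 ZT4 replicate 1, PIP2;3 differed by -1.764, TIP1;1 by -0.665 and PIP2;2 by -0.632. The PIP2;1 and TIP1;2 calls were each lost without 1 of 6 libraries.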

How the results depend on the processing

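No direction of a called value was reversed under any alternative. Of the 185 calls among 468 gene and comparison pairs, 130 were kept in all alternatives and 55 were lost in at least 1, all of them without 1 library among others. DESeq2 lost 6, no filter 3, the fit of only the groups compared 16 and the replicate block 4. The daily difference in LD+FR+TEMP against lab LD had 0 calls, and 1 with no filter, 1 with DESeq2 and 1 with only the groups compared. LD+FR+TEMP against lab LD at ZT16 had 2 calls and 4 with DESeq2, and natural 2014 against natural 2013 at ZT16 had 3 and 5 with only the groups compared. Leaving out 1 library gave 0 to 2 calls for the daily difference in LD+FR+TEMP, 2 to 7 for that in natural 2013, 1 to 4 for LD+FR+TEMP against lab LD at ZT16, 2 to 5 at ZT4, 6 to 11 for natural 2013 against lab LD at ZT16 and 1 to 3 for natural 2014 against natural 2013 at ZT16. The lowest count for LD+FR+TEMP against lab LD at ZT4 (2) came without LD+FR+TEMP ZT4 replicate 3. The other counts stayed within 1.5 times. A minimum of 1 CPM gave 27 genes, 5 CPM 22 and plain totals 26.

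Over 84 pairs of same-numbered libraries, deviations from the group means correlated at -0.244 to 0.21 (median -0.018), and 5 exceeded 0.1. LD+FR+TEMP with lab LD gave 0.107, 0.079 and 0.127 at ZT4 (replicates 1 to 3). At ZT16 the same settings gave 0.114, 0.21 and 0.009. Natural 2014 at ZT4 with natural 2014 at ZT16 gave 0.161 for replicate 1. The replicate numbers thus showed no pairing over most libraries, and a weak one between the indoor settings at the same time. With the replicate block, NIP6;1 in natural 2013 against lab LD at ZT16 was -0.468 (adjusted p = 0.0579), and the calls of TIP2;1 between years at ZT16 and of the daily differences of PIP1;1 and SIP2;1 in natural 2013 were lost. No count moved by over 1.5 times. Genes near 2 CPM rest on few counts outdoors, where depth was lower, so changes in NIP1;1, TIP4;1 and PIP2;4 were measured with little precision. Another scaling moved the median of all genes by at most 0.026.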
